A study of Mus musculus with 12 samples.

Results

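Cdkn1a, Btg1, Btg2, Plk2, Trp53inp1 and Bcl2l11, a group of p53 targets, antiproliferative genes and a cell death gene, were followed in hematopoietic stem and progenitor cells after total body irradiation. The members are all probe sets that carry 1 of these 6 gene symbols in the table of changed genes that the authors deposited. They are 6 of the 325 genes that stand alone on a probe set there, with 8 of the 22626 probe sets whose log2 values were deposited. The table holds probe sets that changed at least 2-fold with an unadjusted p under 0.05 between the same 12 arrays, so the lower levels after irradiation reported below are what chose these probe sets and are given as a description, without a test. Probe sets of these genes that changed less have no name in the table and were not analysed here.

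The arrays comprised 6 of KSL cells from mice given 550 cGy and 6 of KSL cells from non-irradiated mice (0 cGy). KSL cells are bone marrow cells sorted for Kit and Sca-1 on the surface and for the absence of markers of mature lineages, and they contain the hematopoietic stem cells. All mice were C57Bl/6 and 10 weeks old, the source was a cesium irradiator, and the cells were taken at day 14 after irradiation, per the design text. The labels call the arrays repeats and do not say that each came from a separate mouse or pool, so the spread between arrays may be technical. In RNA of a sorted population, fewer cells of a type and less RNA per cell cannot be told apart. Kit and Ly6a, the genes of the sorting markers, have no named probe set, so the sorted phenotype could not be checked on the arrays.

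The transcription factor p53 is stabilised by DNA damage and activates genes that stop the cell cycle, repair DNA or trigger apoptosis. In hematopoietic stem cells it also contributes to quiescence at steady state. Cdkn1a encodes p21, an inhibitor of cyclin-dependent kinases and a classic p53 target. Btg1 and Btg2 encode related antiproliferative proteins that bind the CCR4-NOT deadenylase complex, and Btg2 is also an immediate early gene and a p53 target. Plk2 encodes a polo-like kinase that is induced by serum and by p53. Trp53inp1 encodes a nuclear protein that p53 induces and that acts in cell death and autophagy. Bcl2l11 encodes Bim, a BH3-only protein that antagonises the prosurvival BCL2 proteins and is activated by FOXO transcription factors.

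The promoters of 5 members are shown for the motifs that lie within 250 bases before a start site, which were not the same in all 5. RefSeq (GRCm38.p6) windows of 250 bases before to 50 bases after an annotated start were searched on both strands for a p53 half-site, the FOXO core TGTTTAC and the cyclic AMP response element TGACGTCA. The 250 bases before the start are printed 5′ to 3′ on the strand of the gene, with matches in capitals.
Cdkn1a: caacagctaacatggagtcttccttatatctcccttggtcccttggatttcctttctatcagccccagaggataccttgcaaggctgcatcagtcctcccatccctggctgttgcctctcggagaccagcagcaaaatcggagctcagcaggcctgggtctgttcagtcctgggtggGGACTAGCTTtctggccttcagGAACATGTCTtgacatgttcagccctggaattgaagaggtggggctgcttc
Btg2: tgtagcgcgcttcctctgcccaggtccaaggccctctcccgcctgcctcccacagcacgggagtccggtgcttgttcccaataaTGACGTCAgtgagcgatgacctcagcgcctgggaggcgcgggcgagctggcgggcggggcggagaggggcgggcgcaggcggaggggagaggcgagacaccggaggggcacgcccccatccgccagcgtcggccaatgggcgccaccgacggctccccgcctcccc
Plk2: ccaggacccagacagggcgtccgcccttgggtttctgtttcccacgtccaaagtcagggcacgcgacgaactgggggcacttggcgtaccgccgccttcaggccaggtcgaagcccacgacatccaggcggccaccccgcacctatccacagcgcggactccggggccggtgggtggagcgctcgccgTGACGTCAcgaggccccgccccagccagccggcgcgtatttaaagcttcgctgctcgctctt
Btg1: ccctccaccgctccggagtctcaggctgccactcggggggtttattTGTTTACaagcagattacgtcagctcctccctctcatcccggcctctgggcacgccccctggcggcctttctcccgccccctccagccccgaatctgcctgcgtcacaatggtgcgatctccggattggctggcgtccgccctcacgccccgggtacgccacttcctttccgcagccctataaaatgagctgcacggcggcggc
Bcl2l11: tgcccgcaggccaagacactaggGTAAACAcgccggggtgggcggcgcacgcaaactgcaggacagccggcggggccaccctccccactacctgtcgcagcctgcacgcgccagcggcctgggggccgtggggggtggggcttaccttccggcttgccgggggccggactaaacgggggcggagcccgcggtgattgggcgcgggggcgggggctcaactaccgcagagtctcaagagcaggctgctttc

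These bases lie at chr17:29090729-29090978 on the plus strand for Cdkn1a, chr1:134079156-134079405 on the minus strand for Btg2 and chr13:110394794-110395043 on the plus strand for Plk2. For Btg1 they lie at chr10:96616751-96617000 and for Bcl2l11 at chr2:128125788-128126037, both on the plus strand. The Cdkn1a window held 2 p53 half-sites, which begin at positions -73 and -51, counted in bases from the start. The response element TGACGTCA was found in Btg2 at -166 and in Plk2 at -62. The FOXO core was found in Btg1 at -204 and, on the opposite strand and so printed as GTAAACA, in Bcl2l11 at -227. Over all 32851 RefSeq windows, 8.36% held a p53 half-site, 3.65% the FOXO core and 1.79% the response element. Cdkn1a and Bcl2l11 each have a second annotated start, whose window held none of the 3 motifs and is not printed. The 250 bases before it lie at chr17:29093519-29093768 for Cdkn1a and chr2:128127325-128127574 for Bcl2l11. The motifs do not overlap each other, and a match is a run of letters, not a measured binding site.

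**Figure D1:**
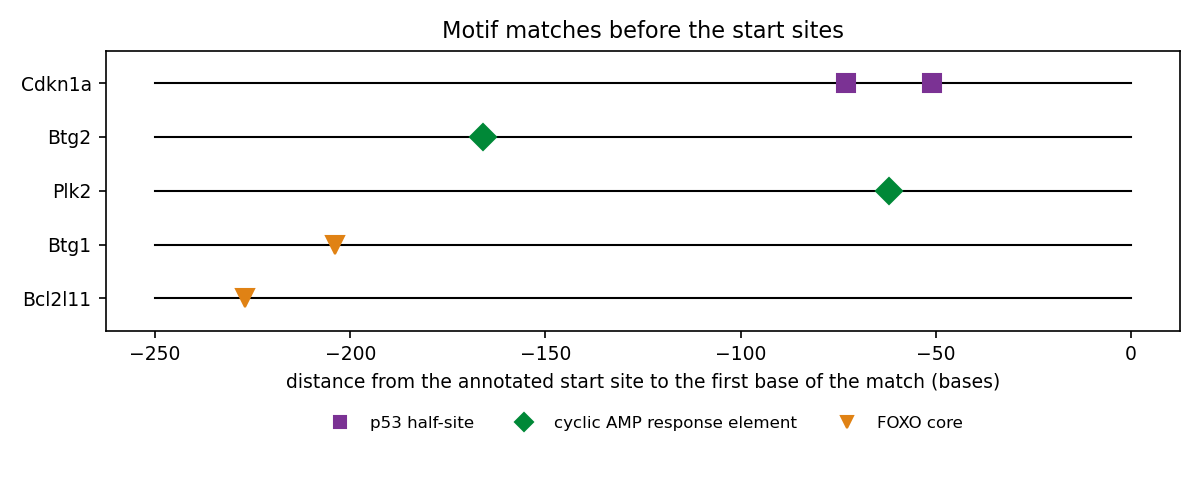
Positions of the motif matches before the annotated start sites of 5 members. The horizontal axis is the distance in bases from the start site to the first base of each match, each line is 1 promoter, and squares, diamonds and triangles mark p53 half-sites, cyclic AMP response elements and FOXO cores. Cdkn1a has 2 half-sites, Btg2 and Plk2 have the same response element, and Btg1 and Bcl2l11 have the same FOXO core. The second annotated starts of Cdkn1a and Bcl2l11, without a match, are not drawn.

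The arrays did not form uniform groups. Replicates 1 to 3 and replicates 4 to 6 lay apart on principal component 2 (16.5% of the variance), and in the control group also on component 1 (35.8%), at -51.52 to -40.99 for replicates 1 to 3 and -9.84 to 0.02 for replicates 4 to 6. No label names a batch, and the split is known only from these values. The members are therefore described over all 12 arrays and within replicates 1 to 3 and replicates 4 to 6. Differences of other genes are over all 12 arrays unless a replicate set is named. Values are log2 expression values as deposited, and array medians lay between 6.94 and 7.01.

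All 8 member probe sets had lower means in irradiated than in control cells, by 2.07-fold to 2.97-fold. The median log2 difference of the 8 was -1.18, against 0.01 over all probe sets, a gap the selection fixed. Within replicates 1 to 3 the median was -1.80, against 0.02 over all probe sets, and within replicates 4 to 6 it was -0.69, against 0.00. In limma with Benjamini-Hochberg adjustment over all probe sets, 3 of the 8 were called lower, both of Btg1 and that of Trp53inp1, where 5.47% of all probe sets were called lower. This count rests on the contrast that chose the members. With the replicate set as a term all 8 were called, against 8.10% of all probe sets. The irradiated arrays all lay below the control arrays in 2 of the 8, both of Btg1, against 2.80% of all probe sets.

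Cdkn1a, the p21 gene, ranged from 7.95 to 10.21 in irradiated arrays, with a median of 9.46, and from 9.68 to 10.83 in control arrays, with a median of 10.66. The groups overlapped, since irradiated replicates 4 to 6 lay above the lowest control array, replicate 3. The means were 9.22 ± 0.99 in irradiated and 10.47 ± 0.46 in control cells (SD, n = 6 each), a log2 difference of -1.25 (SE 0.45). In replicates 1 to 3 the irradiated arrays had 7.95, 8.22 and 8.95, against 10.75, 10.21 and 9.68 in the control arrays. In replicates 4 to 6 they had 10.21, 10.04 and 9.97, against 10.82, 10.83 and 10.56. Within each set the irradiated arrays all lay below the controls, with log2 differences of -1.84 (replicates 1 to 3) and -0.66 (replicates 4 to 6).

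Btg1, an antiproliferative gene, was lower in every irradiated array than in any control array. Its brighter probe set, 1426083_a_at, ranged from 9.17 to 9.91 in irradiated arrays, with a median of 9.70, and from 10.44 to 11.16 in control arrays, with a median of 10.87. The 2 ranges were 0.53 apart. The means were 9.59 ± 0.30 in irradiated and 10.83 ± 0.29 in control cells (SD, n = 6 each), a log2 difference of -1.24 (SE 0.17), or 2.36-fold lower. The other probe set, 1437455_a_at, ranged from 8.81 to 9.39 in irradiated and from 9.65 to 10.71 in control arrays, a difference of -1.13 (SE 0.19). The irradiated arrays lay below the controls within both sets for both probe sets. For the brighter one the log2 difference within replicates 1 to 3 was -1.62, and within replicates 4 to 6 it was -0.86.

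Btg2, the family member that is also an immediate early gene, split by replicate set in the control cells. In irradiated arrays its brighter probe set, 1416250_at, had 9.79, 9.76 and 10.05 in replicates 1 to 3 and 9.32, 8.99 and 9.21 in replicates 4 to 6. In control arrays it had 11.69, 11.76 and 11.39 in replicates 1 to 3 and 9.71, 9.70 and 9.60 in replicates 4 to 6. Irradiated replicates 1 to 3 were thus higher than the control replicates 4 to 6, and the groups overlapped. The means were 9.52 ± 0.40 in irradiated and 10.64 ± 1.07 in control cells (SD, n = 6 each), a log2 difference of -1.12 (SE 0.47). Within replicates 1 to 3 that difference was -1.75, or 3.36-fold lower. Within replicates 4 to 6 it was -0.49, or 1.41-fold lower. In the other probe set, 1448272_at, the corresponding values were -1.96 and -0.13, and in replicates 4 to 6 the groups overlapped. That probe set lay nearest to the limit of the authors' table, with a 2.07-fold lower level and p = 0.0496 in the authors' deposited table, while the nearest one outside it by p, which is unnamed, was 2.66-fold lower at p = 0.0539 when the analysis of variance was recomputed. At the fold limit, a probe set at 2.00048 was inside and an unnamed one at 1.99897 outside.

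Plk2, the polo-like kinase gene, split by replicate set in the irradiated cells. Irradiated arrays had 6.61, 6.40 and 6.67 in replicates 1 to 3 and 8.47, 8.78 and 8.46 in replicates 4 to 6. Control arrays had 9.87, 8.64 and 8.61 in replicates 1 to 3 and 8.81, 8.77 and 9.12 in replicates 4 to 6. In replicates 4 to 6 the irradiated and control arrays overlapped by 0.01, and in replicates 1 to 3 they were 1.94 apart. The means were 7.56 ± 1.11 in irradiated and 8.97 ± 0.48 in control cells (SD, n = 6 each), a log2 difference of -1.41 (SE 0.49). It was -2.48 within replicates 1 to 3, or 5.58-fold lower, and -0.33 in replicates 4 to 6, or 1.26-fold lower.

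Trp53inp1, the p53-inducible nuclear protein gene, ranged from 6.67 to 7.90 in irradiated arrays, with a median of 7.55, and from 7.68 to 9.14 in control arrays, with a median of 8.36. Only the lowest control array, replicate 5, lay within the irradiated range. The means were 7.39 ± 0.50 in irradiated and 8.45 ± 0.53 in control cells (SD, n = 6 each), a log2 difference of -1.06 (SE 0.30). Within replicates 1 to 3 it differed by -1.38 and within replicates 4 to 6 by -0.75, and the arrays overlapped within replicates 4 to 6.

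Bcl2l11, the gene of the proapoptotic protein Bim, ranged from 5.00 to 7.69 in irradiated arrays, with a median of 6.21, and from 5.43 to 9.07 in control arrays, with a median of 7.95. The control value of 5.43, in replicate 2, lay far below the other 5 control arrays, which started at 7.81. The means were 6.27 ± 0.97 in irradiated and 7.85 ± 1.30 in control cells (SD, n = 6 each), a log2 difference of -1.57 (SE 0.66), and without control replicate 2 the difference was -2.06. Within replicates 1 to 3 it differed by -1.95, and within replicates 4 to 6 by -1.19.

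**Figure D2:**
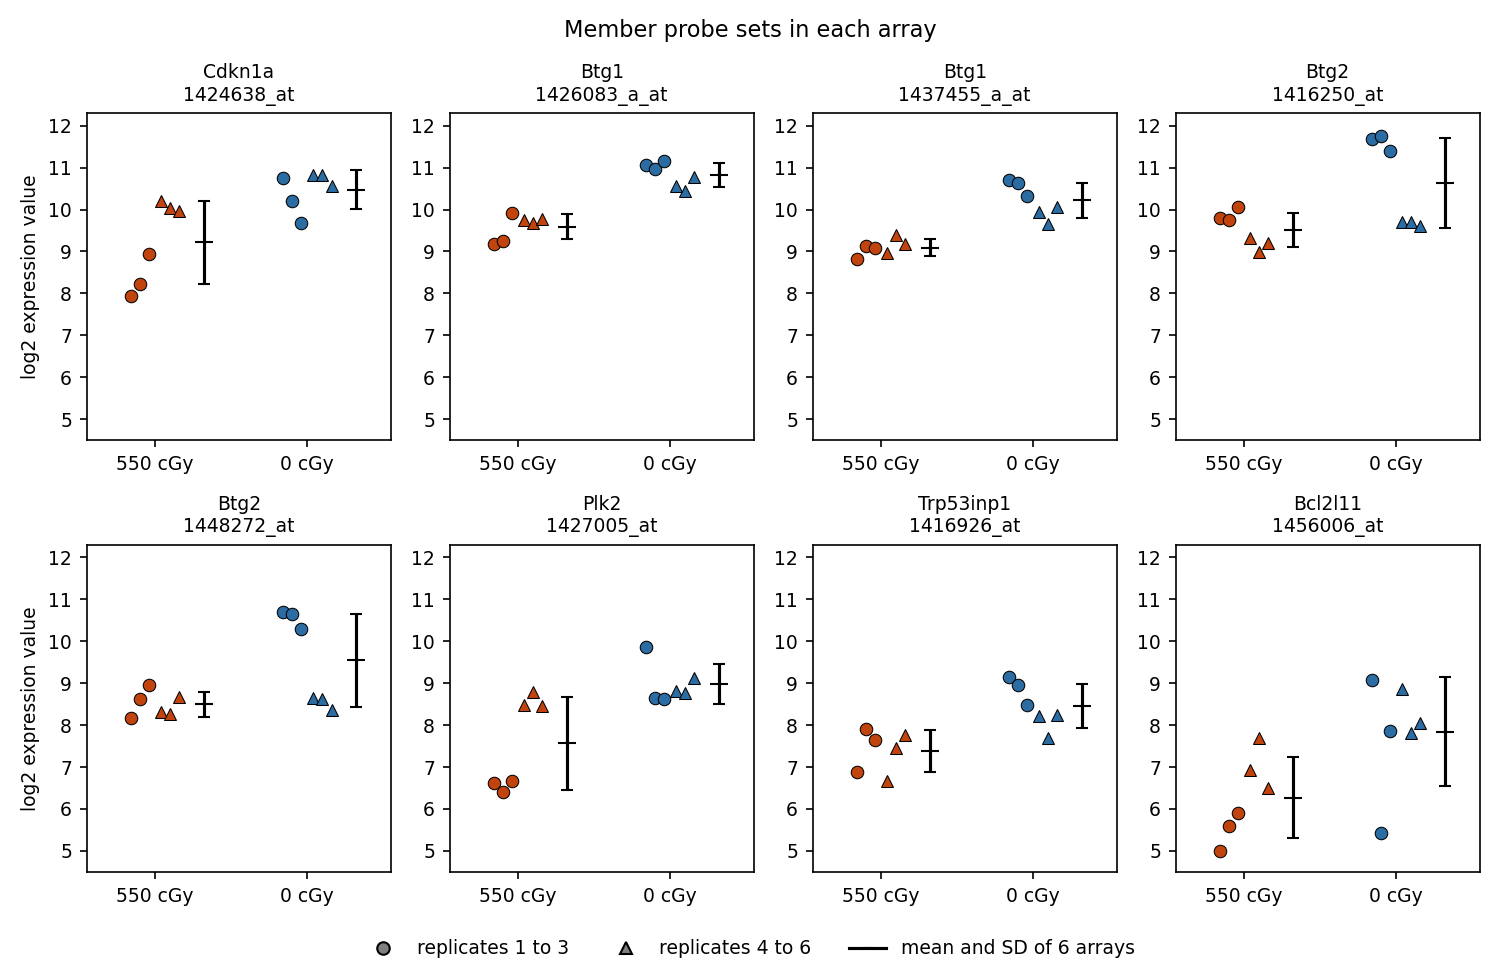
The log2 expression value of each member probe set in every array, with irradiated arrays on the left of each panel and control arrays on the right. Circles are replicates 1 to 3, triangles are replicates 4 to 6, and bars give the mean and SD of 6 arrays. All irradiated circles lie below the irradiated triangles in Cdkn1a, Plk2 and Bcl2l11 and above them in the brighter Btg2 probe set, and all control circles lie above the control triangles in both probe sets of Btg1, both of Btg2 and Trp53inp1.

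**Figure D3:**
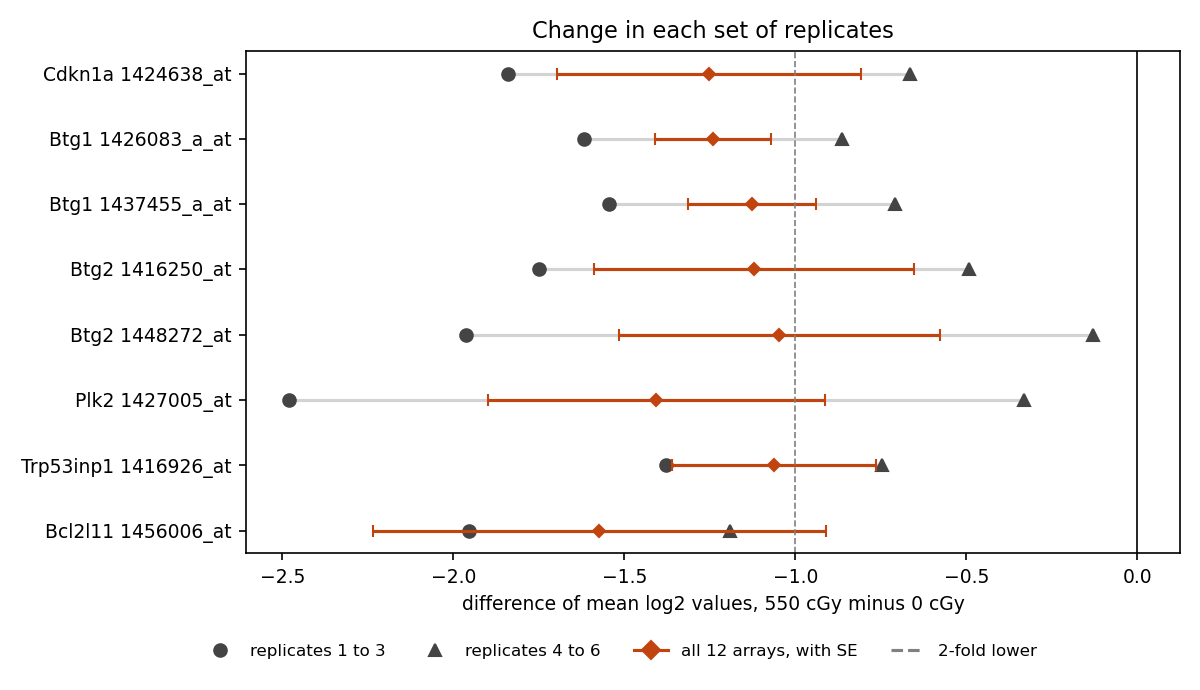
The log2 difference, irradiated minus control, of each member probe set in replicates 1 to 3 (circles), in replicates 4 to 6 (triangles) and over all 12 arrays (diamonds, with SE). The dashed line marks a 2-fold lower level. All 8 circles lie left of their triangles, from -2.48 to -1.38 against -1.19 to -0.13.

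The irradiated arrays all lay below the controls in 7 of the 8 probe sets in replicates 1 to 3, against 12.9% of all probe sets, and in 5 of the 8 in replicates 4 to 6, against 14.5%. These shares too come from the arrays that chose the members. The p-value that chose the members used the spread within dose groups, which holds any difference between the replicate sets in the size of the change. That difference is thus another contrast of the same arrays, not one free of the selection. It was tested in limma over all probe sets as a description of these arrays. It was called in 30 of 22626 probe sets (0.133%), among them both probe sets of Btg2. The change of Btg2 in replicates 1 to 3 minus that in replicates 4 to 6 was -1.26 (SE 0.19, limma adjusted p = 0.0364) in the brighter probe set and -1.83 (SE 0.28, adjusted p = 0.0401) in the dimmer one. These calls were fragile. For the brighter the call held only without irradiated replicate 3 or control replicate 2 or 3, and ended without any other array, with adjusted p from 0.0244 to 0.119. For the dimmer it held only without irradiated replicate 3 or control replicate 3, with adjusted p from 0.0152 to 0.121. For Plk2 the same contrast was larger, -2.15 (SE 0.40), but was not called (limma adjusted p = 0.0691), and passed without control replicate 1 at 0.0253. The contrast was -1.18 (SE 0.39) for Cdkn1a, -0.75 (SE 0.25) for the brighter Btg1 probe set, -0.63 (SE 0.46) for Trp53inp1 and -0.76 (SE 1.02) for Bcl2l11, with limma adjusted p from 0.268 to 0.837. In the dimmer Btg1 probe set it was -0.84 (SE 0.23, limma adjusted p = 0.187). Without irradiated replicate 3 that of the brighter Btg1 probe set passed at 0.0400, and without control replicate 1 the log2 contrast of Bcl2l11 was 0.05.

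The replicate sets were also compared within each dose group. Within irradiated cells, Btg2 was higher in replicates 1 to 3 than in replicates 4 to 6 by 0.69 in the brighter probe set (SE 0.13, limma adjusted p = 0.0414), and the difference in the dimmer one was 0.17 (SE 0.20, adjusted p = 0.727). Within control cells, Btg2 was higher in replicates 1 to 3 by 1.94 in the brighter probe set (SE 0.13, limma adjusted p = 0.000138) and by 2.00 in the dimmer one (SE 0.20, adjusted p = 0.000798). Both control calls held without any 1 of the 12 arrays. Plk2 differed within irradiated cells, where replicates 1 to 3 were lower by 2.01 on the log2 scale (difference -2.01, SE 0.28, limma adjusted p = 0.0132), and its difference within control cells was 0.14 (SE 0.28, adjusted p = 0.813). Cdkn1a was also lower in replicates 1 to 3 within irradiated cells, by a log2 difference of -1.70 (SE 0.28, limma adjusted p = 0.0239). Within control cells its difference was -0.52 (SE 0.28, adjusted p = 0.282) and, like that of Plk2, was not called. For both genes the contrast between the dose groups was not called, as given above. The Plk2 call ended without irradiated replicate 5 or 6 (adjusted p of 0.0743 and 0.0532), and that of Cdkn1a without irradiated replicate 2, 4, 5 or 6 (0.0736 to 0.0942). The 0.69 of Btg2 within irradiated cells lost its call without irradiated replicate 2, 3, 4, 5 or 6 or control replicate 4, 5 or 6 (0.0667 to 0.138). Bcl2l11 had differences of -1.55 (SE 0.72) within irradiated and -0.79 (SE 0.72) within control cells, which missed the threshold (adjusted p of 0.310 and 0.561).

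The dimmer Btg1 probe set was higher in control replicates 1 to 3 than in control replicates 4 to 6 by 0.68 (SE 0.16, limma adjusted p = 0.0274), which passed no longer when control replicate 1, 2, 4 or 5 was left out (0.0644 to 0.106). The other Btg1 probe set and Trp53inp1 had differences of 0.47 (SE 0.17) and 0.81 (SE 0.32) within control cells, at adjusted p of 0.123 and 0.156. In all, 3 of the 8 member probe sets were called within irradiated cells, where 1.06% of all probe sets were called, and 3 of the 8 within control cells, where 8.40% were. Since the split was known from these arrays when the contrast was set up, these p-values describe the arrays and are not independent evidence of a batch.

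**Figure D4:**
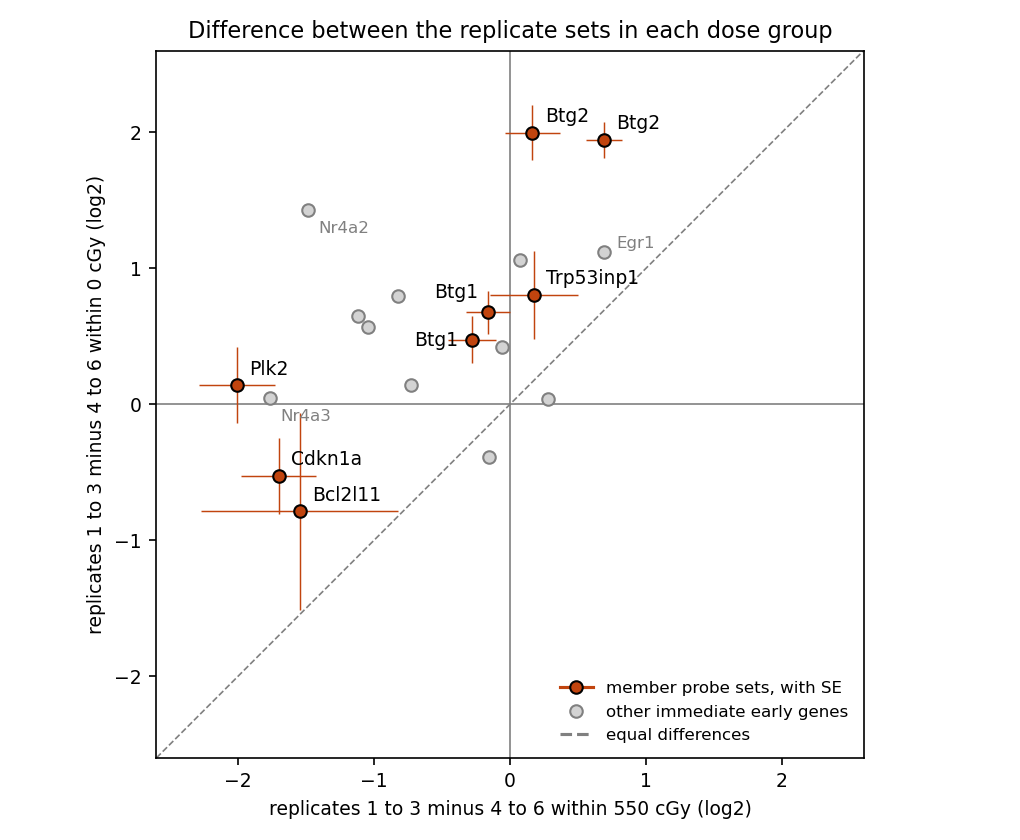
Difference between replicates 1 to 3 and replicates 4 to 6 (log2) within irradiated cells on the horizontal axis and within control cells on the vertical axis. Red points are the 8 member probe sets with their SE, grey points are 11 other immediate early genes of the authors' table, and the dashed line marks equal differences. Btg2 lies near 2 on the vertical axis, and Plk2, Cdkn1a and Bcl2l11 lie left of -1.5 on the horizontal axis, Bcl2l11 with the widest SE.

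The difference between the 2 Btg2 probe sets had an SD of 0.26 over the 12 arrays, where these probe sets had SDs of 0.40 and 0.30 among irradiated and 1.07 and 1.11 among control arrays. For Btg1 that SD was 0.24, about as large as the SDs of its probe sets within a group, which were 0.30 and 0.20 in irradiated and 0.29 and 0.41 in control cells. Of the 8 probe sets, the SD among arrays of a group ran from 0.20 to 1.11 in irradiated and from 0.29 to 1.30 in control cells, where the median over all probe sets was 0.21 and 0.23.

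The likeness of the patterns was measured as the mean absolute difference over the 12 arrays between values centred on their own mean, so a smaller value is a closer pattern. The closest members were Btg1 and Trp53inp1 (0.32) and Cdkn1a and Plk2 (0.33), and the farthest were Btg2 and Bcl2l11 (1.31). Among the other 319 named genes of the authors' table, the closest to Cdkn1a were Arl4c (0.23), a small GTPase gene, and Hbegf (0.26), a growth factor gene of the EGF family. The closest to Plk2 were Vegfa (0.25), the vascular growth factor gene, and Nr4a3 (0.26), an orphan nuclear receptor gene, and Nr4a3 (0.47) and Zfp503 (0.50) were the closest to Bcl2l11. The closest to Btg2 were the imprinted noncoding RNA gene Meg3 (0.22) and the immediate early gene Egr1 (0.27). Btg1 lay nearest to Bcl9l and Ctla2b (0.13 each), and Trp53inp1 to Ctsf and Retreg1 (0.24 each). The median over all 319 genes was 0.52 to 1.06, depending on the member. All these genes were in the table because they changed between the same arrays, so part of the likeness is shared selection.

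Most genes of the surrounding pathways carry no name in the table and could not be counted. Of 32 p53 targets listed, 4 were in the table, all of them members (Cdkn1a, Btg2, Plk2 and Trp53inp1), and of 12 p53 regulators 0 were. The BTG and TOB family had 2 of 6, the cyclin-dependent kinase inhibitors 1 of 7 and the BCL2 family 1 of 21, which were again only members. Of 5 polo-like kinases 2 were in the table, and they differed in direction. Plk1, which drives mitosis, averaged higher in irradiated cells by 1.15 on the log2 scale (2.23-fold), where Plk2 was lower by 2.65-fold. Of 18 FOXO targets 6 were in the table, all lower in irradiated cells and 4 of them called, where 5.47% of all probe sets were called lower, with Sesn3, a stress-induced sestrin gene, at -1.25 and Klf2, a quiescence-associated transcription factor gene, at -1.09 beside the 4 members. Of 38 cell cycle genes 7 were in the table, all higher and all called, with Rrm2 at 1.16, Mcm10 at 1.27, Plk1 at 1.15 and Ttk at 1.09, where 5.87% of all probe sets were called higher. The table as a whole held 128 named genes with higher and 197 with lower means, and each of these genes was selected on this contrast.

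Btg2 is one of the immediate early genes, which respond within minutes to stimulation and to cell handling. The table held 12 of 25 listed, Btg2 included, and each of the 12 had a lower mean in irradiated cells, with 9 called, where 5.47% of all probe sets were called lower. These counts are a description, since all 12 were selected on this same contrast. Their summed linear level, with Btg2 in the sum, was 7591 to 11800 in irradiated arrays and 14902 to 35229 in control arrays, with 27396 to 35229 in control replicates 1 to 3 and 14902 to 16569 in control replicates 4 to 6. The other 11 did not all share the pattern of Btg2: their log2 differences, replicates 1 to 3 minus replicates 4 to 6, ran from -1.76 (Nr4a3) to 0.69 (Egr1) within irradiated cells and from -0.39 (Egr2) to 1.43 (Nr4a2) within control cells. Egr1 had 0.69 in irradiated and 1.12 in control cells, beside 0.69 and 1.94 for the brighter Btg2 probe set. Nr4a3 had -1.76 in irradiated and 0.05 in control cells, beside -2.01 and 0.14 for Plk2. These differences of immediate early genes are given as values, without a test. The part of handling in these values was not tested.

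Markers of cell types were also among the genes of the authors' table. Each was selected on this same contrast, so their differences are given as a description. Of 20 erythroid markers 14 were in the table, all with higher means in irradiated cells and 11 of them called. Over all probe sets 5.87% were called higher. The summed linear level of the erythroid markers was 5373 to 15311 in irradiated and 1780 to 4811 in control arrays. Of 16 lymphoid markers 6 were in the table, all lower and all called, where 5.47% of all probe sets were called lower. Their summed linear level was 1283 to 2708 in irradiated and 4682 to 7966 in control arrays. Of 8 stem cell markers 4 were in the table, with Slamf1 higher by 1.68 and Hlf and Procr at -1.24 and -1.01. The table held 1 of 13 neutrophil markers, Ms4a3, called higher by 1.82. It held 2 of 8 mast cell and basophil markers, Fcer1a and Il1rl1, called higher by 1.10 and 1.01. It held 1 of 10 macrophage and dendritic cell markers, Mpeg1, at -1.06, and 1 of 10 T and NK cell markers, Cd28, at -1.02, neither of which was called. Within replicates 1 to 3 the differences were 3.15 for Ms4a3, 1.77 for Fcer1a, 1.42 for Il1rl1, -0.23 for Mpeg1 and -0.98 for Cd28. Within replicates 4 to 6 they were 0.49, 0.42, 0.60, -1.88 and -1.05, in the same order. Their part in the lower levels of the 6 members was not tested.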

How the data were processed

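The authors deposited log2 expression values, 1 row per probe set and 1 column per array. The submitters' processing notes name Partek, while the array normalization is not given in the sources used here. In addition, the authors deposited a table of changed probe sets, which per the file headers holds a symbol, a p-value without adjustment, a linear ratio, a signed fold change and scores of an analysis of variance (F statistic, sums of squares). Gene names came only from that table, where 436 probe sets name 1 gene, with symbols updated through the gene ID in a RefSeq table (425 matched). The brightest probe set stands for its gene. The text names all 6 members with all their probe sets. Other named genes are the 2 closest per member and up to 4 per list by the smallest limma p, with Hlf, Procr, Slamf1, Egr1, Egr2, Nr4a2 and Nr4a3 chosen after their values were seen.

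Contrasts were fitted with limma 3.58.1 in R 4.3.3 (lmFit, eBayes) on all 22626 probe sets, with Benjamini-Hochberg adjustment and calls under 0.05. SEs of the dose differences are unmoderated, and those of set contrasts are moderated. The difference between replicate sets used 4 groups of 3 arrays. On simulated data with 200 changed probe sets among 22626, the dose fit recovered 73 of 100 changes of 1 and 98 of 100 of 2 on the log2 scale, and the set contrast 35 and 74 of 100. The simulated noise took the SD within each dose group, which holds any shift between the replicate sets. The set contrast itself uses the spread within each set, so its simulated recovery need not apply to these arrays. Array number limits the precision. The members, lists and the replicate split were chosen with earlier results of these data known.

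Alternatives were quantile normalization, subtraction of array medians, leaving out the dimmest 40% of probe sets, array weights, a trended and robust prior, a replicate block, the replicate set as a term or alone, and leaving out each array. Figures were drawn with matplotlib 3.10.9.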

Additional observations from a re-analysis of the deposited data

Results flagged for a closer look

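The change of Btg2 in replicates 1 to 3 minus that in replicates 4 to 6 was -1.26 in the brighter and -1.83 in the dimmer probe set, a difference between the replicate sets that limma called at adjusted p of 0.0364 and 0.0401. Replicates 1 to 3 minus replicates 4 to 6 was 0.69 and 0.17 within irradiated cells and 1.94 and 2.00 within control cells.

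In the Bcl2l11 probe set, control replicate 2 had a log2 value of 5.43, and its gap to the nearest control array was 0.653 of the range of the 6 control arrays, above Dixon's critical value for 6 samples. About 1 in 20 groups passes it by chance, and 16 groups were examined.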

How the results depend on the processing

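The log2 changes of the 6 members kept their negative sign under quantile normalization, subtraction of array medians, each replicate set alone and without any 1 array. Those of Btg1 (-1.62 and -0.86) and Plk2 (-2.48 and -0.33) moved by more than 1 SD in replicates 1 to 3 and replicates 4 to 6 alone. Without each array in turn the changes ran from -1.45 to -1.0 for Cdkn1a, -1.32 to -1.16 for Btg1, -1.33 to -0.90 for Btg2, -1.65 to -1.17 for Plk2, -1.22 to -0.92 for Trp53inp1 and -2.06 to -1.32 for Bcl2l11.

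Of all probe sets, 2567 were called between the dose groups, 51.8% of them higher (62.0% with array medians subtracted). The count was 3932 with the replicate set as a term, 1140 and 1458 in replicates 1 to 3 and 4 to 6 alone, 451 at a fold of 2 with unadjusted p under 0.05, and 1513 to 2834 without each array in turn, the fewest being left when irradiated replicate 1 (1513), irradiated replicate 6 (1610) or control replicate 1 (1675) was dropped. Of the member probe sets, 3 were called, 5 with quantile normalization, without the dimmest probe sets, with a trended and robust prior or with the replicate block, 8 with the set term, 6 in replicates 1 to 3 alone, 4 in replicates 4 to 6 alone and 2 to 5 without each array, the 5 being without irradiated replicate 4. The replicate numbers did not mark the closest arrays: same-numbered deviations from the group means correlated at 0.01 to 0.29, and 1 of the 6 irradiated arrays correlated best with its own number. Each irradiated array did correlate best with a control array of its own replicate set. Low correlations cannot exclude a pairing by number in the design.

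The difference in change between the replicate sets was called in 30 probe sets, 96 with a trended and robust prior, 47 with array weights and 4 to 129 without each array. For Plk2 it passed with a trended and robust prior (-2.15, adjusted p = 0.0393) and array weights (-2.12, 0.0459). Without each array it ran from -2.36 to -1.73 for Plk2, -1.37 to -1.18 for Btg2, -0.98 to -0.62 for Btg1 and -1.77 to 0.05 for Bcl2l11. The set differences within irradiated cells ran from 0.60 to 0.76 for the brighter Btg2 probe set, -1.99 to -1.49 for Cdkn1a and -2.06 to -1.90 for Plk2. That of the dimmer Btg1 probe set within control cells ran from 0.56 to 0.79. These alternatives were chosen after the data were seen. The cause of these shifts was not tested. With 3 arrays per set and dose, 35 of 100 simulated differences of 1 were recovered, at a noise that holds any shift between the sets.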
